A study of Mus musculus with 16 samples.

Results

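Of the 16 RNA-seq libraries of the series, 8 form the comparison described here: 4 libraries of wild-type organ of Corti cultures exposed to FK228 and 4 of wild-type cultures that received the solvent. Both groups were taken by their labels (wild-type genotype, FK228 or solvent), and the response was read across the 17125 genes that passed a filter on low counts. The wild-type cultures came from C57BL/6 mice on postnatal day 0 and were kept for 3.5 days on Matrigel. FK228 was given at 2 nM from day 1 to day 1.5 in vitro and again from day 3 to day 3.5, and the solvent group received 0.1% DMSO on the same schedule. RNA was taken at the end of the later exposure, and each library held RNA pooled from 6 to 8 cultures. Cultures of the same age, strain and schedule from mice heterozygous for a Rest allele without exon 4, also 4 libraries with FK228 and 4 with solvent, entered the fit and are used below to set the response beside that of a second genotype. Nothing in the labels ties a pool to a litter, and the p-values below therefore cover only the spread from pool to pool, which may be technical.

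FK228, or romidepsin, is a cyclic peptide that is reduced inside the cell to a thiol that binds the zinc ion in the active site of class I histone deacetylases. These enzymes remove acetyl groups from histone tails and work as the catalytic part of repressor complexes, so that their inhibition raises histone acetylation. In other cells such inhibitors are known to raise linker histone genes and neuronal genes and to slow the cell cycle. The organ of Corti is the hearing epithelium of the cochlea, made of hair cells, which turn sound into synaptic signals, and of supporting cells, with neurons, glia, mesenchyme and blood vessels nearby in the explant.

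The defining genes of the sensory epithelium were present in both groups. Otof, the calcium sensor of hair cell exocytosis, had 45.1 ± 3.84 CPM with FK228 and 67.1 ± 9.71 CPM with solvent (mean ± SD of 4 libraries), where CPM are gene counts scaled to a common library size with TMM factors. Tecta, a protein of the tectorial membrane, had 476 ± 43.6 CPM with FK228 and 489.8 ± 21 CPM with solvent, and Myo7a, the unconventional myosin of hair bundles, 10.8 ± 2.85 CPM with FK228 and 11.6 ± 2.85 CPM with solvent. Of 9 matched red blood cell genes 7, haemoglobin genes included, were below the filter on low counts. Gene counts ran from 16224586 to 17656274 in the FK228 libraries and from 17462876 to 23611571 in the solvent libraries, and 22484 to 22868 genes had at least 1 count with FK228, against 22475 to 22904 with solvent. The solvent library with the most counts, library 1, also had the lowest share of reads outside genes, 10.8% of reads, against 16.2% to 20.8% in the FK228 libraries and up to 16.3% in the solvent libraries. The first principal component of the 8 libraries held 62.3% of the variance and separated FK228 from solvent, and the next, with 9.62%, set solvent library 1 apart from the others.

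FK228 changed the level of 49% of the genes tested. With FK228, 4061 genes rose (23.7% of those tested) and 4333 fell (25.3%), by edgeR's quasi-likelihood test at a Benjamini-Hochberg adjusted p under 0.05. The 4 FK228 and the 4 solvent values did not overlap in 7649 genes (44.7%). A change of at least 2-fold was called in 2703 genes (15.8%), 1250 higher (7.3%) and 1453 lower (8.48%), and a change of at least 4-fold in 327 genes higher and 305 lower. The genes that changed at least 2-fold held 4.95% of the gene counts in FK228 libraries and 6.85% in solvent libraries. The median log2 fold change, FK228 over solvent, was -0.0058, with an interquartile range from -0.44 to 0.39. All of these values are relative to the gene counts of each library, scaled with TMM factors. Scaled to the ERCC spike-in RNA instead, the median of all genes was -0.16, 2008 genes rose and 4516 fell, so that rises were 30.8% of the calls, against 48.4% with TMM. The spike-in share itself was 0.205 ± 0.0233% with FK228 and 0.178 ± 0.0175% with solvent (exact two-sided permutation test, p = 0.143).

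**Figure D1:**
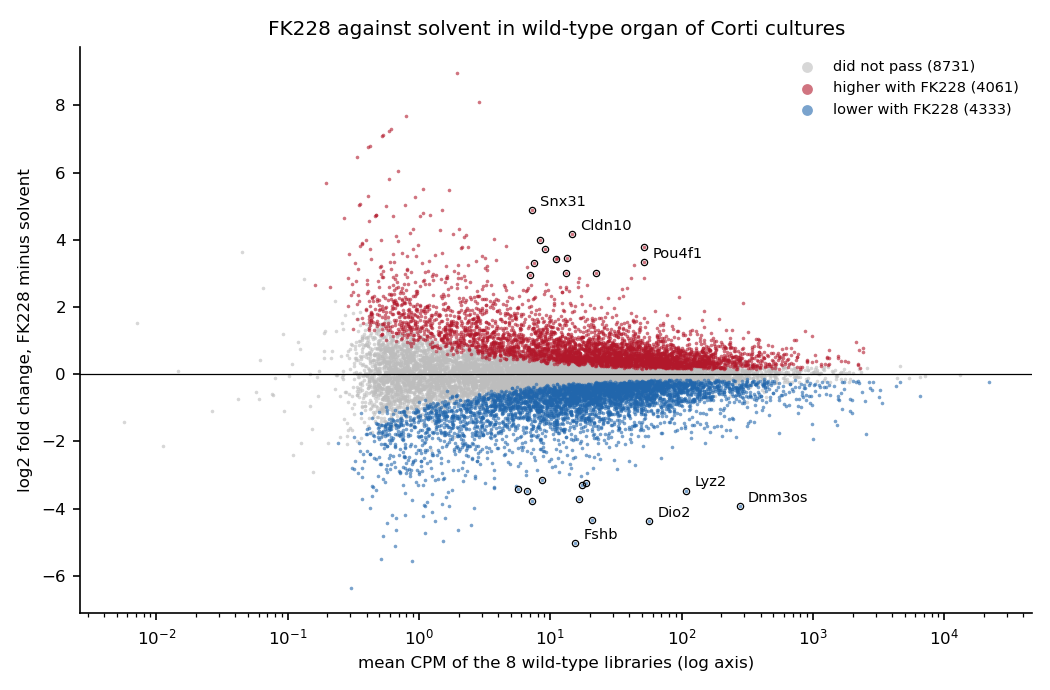
Each point is 1 of the 17125 genes tested, with its mean level in the 8 wild-type libraries (CPM, log axis) on the horizontal axis and the log2 fold change of FK228 over solvent on the vertical axis; colours mark the 4061 genes that rose, the 4333 that fell and those that did not pass. Called genes lie on both sides of 0 over most of the range of levels, the largest changes lie at low levels, and circles mark the 24 genes of largest change among those with at least 10 CPM in the higher group.

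The promoters of 3 of the genes with the largest rises and 3 of those with the largest falls are shown first, as examples of the windows whose CpG content is read further below; these 6 were chosen after their windows were seen and do not stand for their sets. Each is 250 bases before to 50 bases after the start of the gene in RefSeq on GRCm38.p6, read 5′ to 3′ on the strand of the gene. Capitals mark exact matches on either strand to the GC box (GGGCGG), the CCAAT box (CCAAT), the TATA box (TATAAA), the CRE (TGACGTCA), the AP-1 word (TGACTCA), the E-box (CACGTG) and an E2F-like word (TTTCGCGC). The risers are Pou4f1 (chr14:104467950-104468249, minus strand), Gchfr (chr2:119167538-119167837, plus strand) and Eaf2 (chr16:36874777-36875076, minus strand).
Pou4f1: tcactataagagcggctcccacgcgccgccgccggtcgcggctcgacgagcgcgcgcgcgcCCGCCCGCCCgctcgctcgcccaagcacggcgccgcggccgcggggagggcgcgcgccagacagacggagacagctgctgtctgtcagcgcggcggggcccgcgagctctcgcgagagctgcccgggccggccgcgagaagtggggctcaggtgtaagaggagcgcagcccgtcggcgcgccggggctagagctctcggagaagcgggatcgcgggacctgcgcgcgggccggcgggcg
Gchfr: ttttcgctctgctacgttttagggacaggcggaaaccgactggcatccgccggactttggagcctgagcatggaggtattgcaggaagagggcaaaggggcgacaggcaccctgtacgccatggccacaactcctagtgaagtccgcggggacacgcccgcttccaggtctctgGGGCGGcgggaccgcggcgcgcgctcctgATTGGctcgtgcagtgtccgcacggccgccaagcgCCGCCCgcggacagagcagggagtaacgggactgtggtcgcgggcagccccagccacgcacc
Eaf2: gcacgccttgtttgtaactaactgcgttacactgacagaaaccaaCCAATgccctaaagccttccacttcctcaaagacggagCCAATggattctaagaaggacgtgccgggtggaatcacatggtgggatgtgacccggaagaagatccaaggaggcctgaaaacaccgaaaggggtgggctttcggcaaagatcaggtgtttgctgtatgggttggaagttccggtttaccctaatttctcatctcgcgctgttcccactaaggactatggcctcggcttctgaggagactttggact

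The genes that fell are Fshb (chr2:107059602-107059901, minus strand), Dio2 (chr12:90738989-90739288, minus strand, 600 bases from the gene start of GENCODE M21) and Lyz2 (chr10:117282223-117282522, minus strand).
Fshb: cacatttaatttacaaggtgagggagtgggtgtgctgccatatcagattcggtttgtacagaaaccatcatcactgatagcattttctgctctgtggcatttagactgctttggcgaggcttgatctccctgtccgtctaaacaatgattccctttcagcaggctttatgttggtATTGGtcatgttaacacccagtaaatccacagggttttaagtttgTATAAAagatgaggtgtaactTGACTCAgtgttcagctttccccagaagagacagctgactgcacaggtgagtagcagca
Dio2: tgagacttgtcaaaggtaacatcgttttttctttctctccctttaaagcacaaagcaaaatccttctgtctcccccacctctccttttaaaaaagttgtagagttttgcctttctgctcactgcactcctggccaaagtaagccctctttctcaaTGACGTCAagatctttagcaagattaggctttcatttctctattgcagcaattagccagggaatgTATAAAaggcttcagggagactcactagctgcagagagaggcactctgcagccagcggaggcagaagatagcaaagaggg
Lyz2: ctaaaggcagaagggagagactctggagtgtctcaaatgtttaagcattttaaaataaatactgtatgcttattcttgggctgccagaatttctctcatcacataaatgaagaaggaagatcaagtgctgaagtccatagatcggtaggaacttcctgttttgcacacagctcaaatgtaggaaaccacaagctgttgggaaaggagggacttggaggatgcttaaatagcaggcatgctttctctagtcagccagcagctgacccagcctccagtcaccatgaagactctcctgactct
The window of Pou4f1 held 57 CpG dinucleotides and 2 GC boxes, that of Gchfr 31 CpG, 2 GC boxes and 1 CCAAT box, and that of Eaf2 12 CpG and 2 CCAAT boxes. The window of Fshb held 3 CpG with 1 CCAAT box, 1 TATA box and 1 AP-1 word, and that of Dio2 3 CpG with 1 CRE and 1 TATA box. The window of Lyz2 held 1 CpG and no match to these words. Such matches describe the letters of the window only.

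Genes of largest change were taken from called genes without overlap and with a mean of at least 10 CPM in the higher group. This holds for changes in fold and in CPM, so that lack of overlap in these genes was a condition of the choice. Among them the largest rises in fold were in genes with little RNA in solvent cultures. Snx31, a sorting nexin, had 13, 10.5, 17.4 and 15.2 CPM in the 4 FK228 libraries, against 0.361, 0.44, 0.728 and 0.344 CPM in the 4 solvent libraries. All 4 FK228 libraries stood above all 4 solvent libraries, with a log2 fold change of 4.89 ± 0.29 (SE), 29.7-fold (edgeR adjusted p = 6.05e-10). Cldn10, a claudin of tight junctions that forms paracellular ion pores, had 26.5, 24.8, 30.8 and 28.4 CPM in FK228 libraries 1, 2, 4 and 7 and 2.3, 1.43, 0.672 and 1.61 CPM in solvent libraries 1 to 4. It was 18-fold higher with FK228 (edgeR adjusted p = 3.89e-10), and the groups did not overlap. Eaf2, a partner of the ELL elongation factors of RNA polymerase II, had 18.1, 12.9, 15.6 and 16.2 CPM with FK228, against 1.08, 0.879, 0.896 and 1.03 CPM with solvent. No library of either group came near the other group, and the rise was 16-fold (edgeR adjusted p = 3.41e-11).

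Pou4f1 encodes BRN3A, a POU transcription factor of sensory neurons including those of the spiral ganglion, and it rose 10.1-fold. It had 93.8, 75.9, 90.1 and 118 CPM in the 4 FK228 libraries, against 9.53, 9.18, 10.4 and 8.38 CPM in the 4 solvent libraries. The solvent libraries were close to each other and the lowest FK228 library was far above them (log2 fold change 3.33 ± 0.14, edgeR adjusted p = 2.17e-11). Nrip3, a nuclear receptor interacting protein, had 91.8, 67.3, 111 and 114 CPM with FK228, against 7.45, 6.38, 7.34 and 6.72 CPM with solvent, and rose 13.7-fold. Gchfr, the feedback regulator of GTP cyclohydrolase in tetrahydrobiopterin synthesis, had 18.1, 14.6, 16.2 and 19.4 CPM in the 4 FK228 libraries, against 1.63, 1.04, 0.952 and 1.49 CPM in the 4 solvent libraries. Its groups did not overlap and the rise was 13.2-fold (edgeR adjusted p = 5.52e-10).

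The other 6 genes of this set rose by log2 values from 2.96 to 3.46. They were Adra2b, an adrenergic receptor (24.4 CPM with FK228, 2.23 CPM with solvent), the long non-coding RNA Dbpht2 (20.2 and 1.87 CPM), Rab26, a small GTPase of secretory granules (13.7 and 1.38 CPM), Tmem59l, a membrane protein of neurons (39.8 and 4.94 CPM), Aldh1b1, a mitochondrial aldehyde dehydrogenase (23.3 and 2.9 CPM), and Ankrd35 (12.4 and 1.58 CPM). Rab26 shares 10.3% of its exon bases with Traf7 and another transcript, and the unstranded counts do not tell such reads apart. All 12 genes were also called higher in the heterozygous cultures, by log2 values from 2.74 to 4.67.

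**Figure D2:**
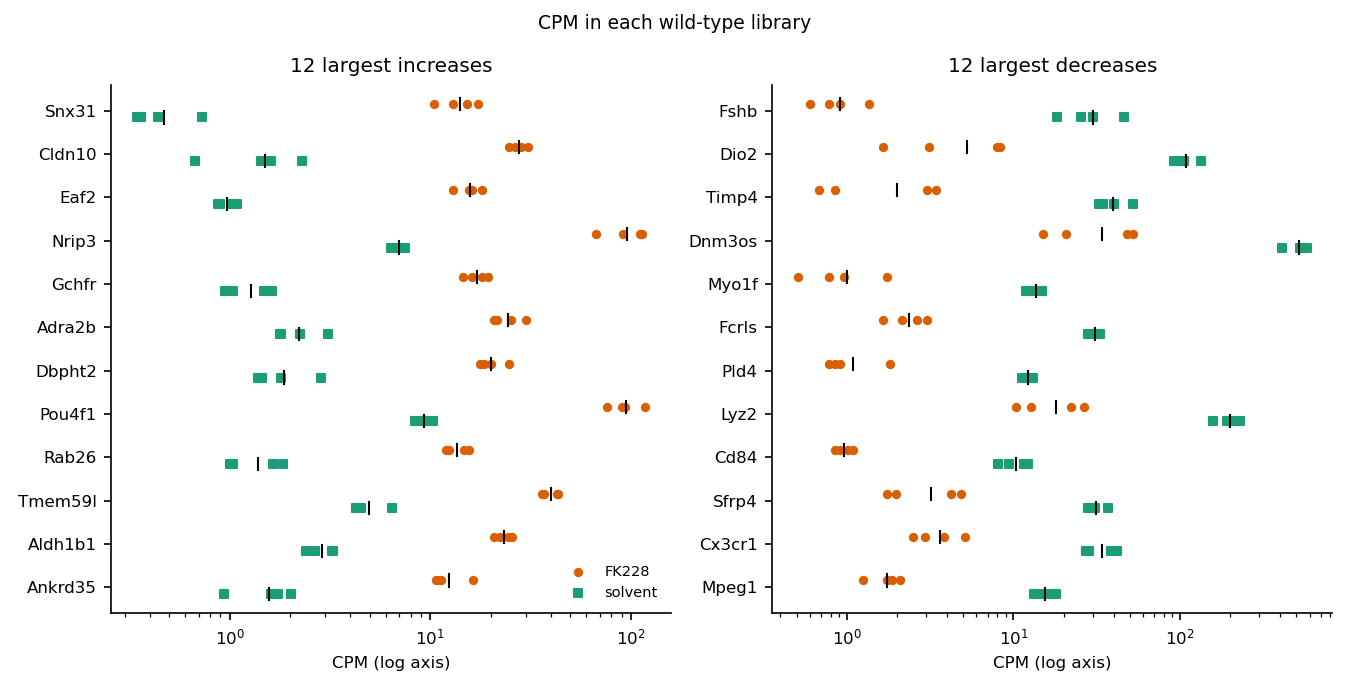
CPM (log horizontal axis) of the 12 genes with the largest rises (left panel) and the 12 with the largest falls (right panel); each point is 1 library, the 4 FK228 libraries above the 4 solvent libraries in the row of each gene, and the vertical bars mark the means. The FK228 and the solvent libraries overlap in none of the 24 genes, which was a condition of their choice.

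The largest falls were in a hormone subunit gene, in genes of connective tissue and in genes of macrophages. In RNA of whole explants, fewer cells of a type and less RNA per cell cannot be told apart. Fshb, the beta subunit of follicle-stimulating hormone and known from the pituitary, had 0.907, 0.785, 0.603 and 1.36 CPM with FK228, against 18.2, 46.4, 30.1 and 25.3 CPM with solvent. Every FK228 library was below every solvent library, and the fall was 32.4-fold (log2 fold change -5.02 ± 0.34, edgeR adjusted p = 3.72e-09). Dio2, the deiodinase that turns the thyroid prohormone into its active form in the developing cochlea, had 1.64, 8.27, 7.96 and 3.11 CPM in the 4 FK228 libraries, against 91.8, 105, 102 and 134 CPM in the 4 solvent libraries. FK228 libraries 1 and 7 were lower than libraries 2 and 4, all 4 were far below the solvent libraries, and the fall was 20.8-fold (edgeR adjusted p = 8.34e-09).

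Dnm3os, a long non-coding RNA that holds the microRNA genes Mir199a-2 and Mir214, had 15.1, 51.9, 48.4 and 20.8 CPM with FK228, against 409.7, 523, 564 and 575 CPM with solvent. The same 2 FK228 libraries, 1 and 7, were the lowest, and the groups did not overlap (log2 fold change -3.93 ± 0.33, edgeR adjusted p = 3.36e-08). Timp4, an inhibitor of matrix metalloproteinases, had 0.68, 3.44, 3.02 and 0.848 CPM in the 4 FK228 libraries, against 52.2, 34.4, 40 and 32.8 CPM in the 4 solvent libraries, again with libraries 1 and 7 lowest. Sfrp4, a secreted Wnt antagonist, averaged 3.2 ± 1.56 CPM with FK228 and 31.4 ± 3.92 CPM with solvent.

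Lyz2, the lysozyme of macrophages and other myeloid cells, had 22.2, 12.8, 10.3 and 26.7 CPM with FK228, against 231, 217, 191 and 159 CPM with solvent. The FK228 values lay far below the solvent values, 11-fold lower on average (edgeR adjusted p = 3.03e-09). The remaining 6 of the 12 largest falls are also genes known from myeloid cells. Mean levels with FK228 and solvent were 1 and 13.6 CPM for the myosin Myo1f, 2.37 and 31 CPM for the microglial receptor Fcrls, 1.09 and 12.3 CPM for the nuclease Pld4, 0.964 and 10.3 CPM for the SLAM receptor Cd84, 3.61 and 34 CPM for the fractalkine receptor Cx3cr1, and 1.74 and 15.6 CPM for the pore-forming Mpeg1. All 12 genes also fell in the heterozygous cultures, by log2 values from -5.16 to -2.66.

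The changes that moved the most RNA were smaller in fold. The 8 largest gains of mean CPM were in H3f3b, Prdx1, Strbp, Lifr, Cnnm4, Ncam1, Usp37 and Cbfa2t2, with log2 fold changes from 0.54 to 1.29. Ncam1, the neural cell adhesion molecule, had 1333, 1287, 1225 and 1521 CPM in the 4 FK228 libraries, against 587, 646, 553 and 672 CPM in the 4 solvent libraries. Its groups did not overlap and it rose 2.18-fold (edgeR adjusted p = 1.4e-08). Cnnm4, a magnesium transporter, averaged 1229 ± 72.2 CPM with FK228 and 502 ± 40.6 CPM with solvent, and Lifr, the receptor of leukemia inhibitory factor, 2939.9 ± 214 CPM with FK228 and 1872 ± 118 CPM with solvent. H3f3b, a replacement histone gene, averaged 2832 ± 201 CPM with FK228 and 1451 ± 136 CPM with solvent, and the antioxidant enzyme gene Prdx1 3042 ± 265 CPM with FK228 and 1759 ± 126 CPM with solvent. H3f3b and Prdx1 have many processed copies in the genome, so that their counts are uncertain. In the heterozygous cultures 6 of these 8 genes rose (0.15 to 1.22 over all 8).

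The 8 largest losses of mean CPM included Car3, Ptn, Nfia, Col3a1, Serpinh1, Igf1 and Otor, and all 8 also fell in the heterozygous cultures. Nfia, a transcription factor of glial and other lineages, had 1119.5, 1367, 1199 and 1214 CPM with FK228, against 2971, 2743, 2481 and 2765 CPM with solvent. The highest FK228 library was below the lowest solvent library, and the fall was 2.24-fold (edgeR adjusted p = 2.02e-09). Col3a1, a fibrillar collagen, averaged 782 ± 137 CPM with FK228 and 2251 ± 273 CPM with solvent, its collagen chaperone Serpinh1 2434 ± 128 CPM with FK228 and 3880.5 ± 213 CPM with solvent, and the growth factor Igf1 1206 ± 243 CPM with FK228 and 2596 ± 252 CPM with solvent. Otor, a secreted protein of the inner ear, averaged 821 ± 258 CPM with FK228 and 2147 ± 393 CPM with solvent, and the heparin-binding growth factor Ptn 2409 ± 221 CPM with FK228 and 4350.0 ± 654 CPM with solvent. Car3, a carbonic anhydrase, had 1227, 1528, 1504 and 352 CPM in the 4 FK228 libraries, against 4121, 3378, 3639 and 4560.1 CPM in the 4 solvent libraries, with FK228 library 7 the lowest of all.

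Gene lists written from general knowledge were read for the number of members that rose and fell in the fit over all genes, beside 23.7% and 25.3% of all genes tested. Members below the filter on low counts are left out. They included 8 of 13 sensory neuron factors, 33 of 92 potassium channel subunits and 26 of 65 claudins, connexins and cadherins. Also left out were 19 of 53 glutamate, GABA and glycine receptors, 20 of 44 forkhead genes and 16 of 57 clustered protocadherins. Counts of these lists do not stand for the whole family. In what follows a value without a unit is a log2 fold change, FK228 over solvent, and a median is taken over the log2 fold changes of the tested members of a list. Of 19 lists with a median between -0.15 and 0.15, 16 moved by over 1.5 times when 1 library was left out, and no direction is read from such medians; of the 54 other lists 17 did, and their values stand beside the medians printed. Of the 4 class I deacetylase genes, which encode the targets of the drug, 2 rose and none fell, with a median log2 fold change of 0.34. Hdac1 had 235, 216, 234 and 239 CPM with FK228, against 135, 128, 119.5 and 112 CPM with solvent, without overlap and 1.87-fold higher with FK228 (edgeR adjusted p = 8.13e-07). Hdac3 rose by 0.60 on the log2 scale (edgeR adjusted p = 1.37e-06). Hdac2 averaged 146 ± 8.1 CPM with FK228 and 139 ± 7.11 CPM with solvent and Hdac8 11.3 ± 1.67 CPM with FK228 and 11.9 ± 1.29 CPM with solvent, and neither passed. Of the 14 other deacetylases and sirtuins 4 rose and 6 fell (median -0.22), among them Sirt7, a sirtuin of the nucleolus, at 1.27, and the class II enzymes Hdac9 and Hdac7 at -1.44 and -1.01.

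Of 26 subunits of the corepressor complexes around these enzymes 4 rose and 7 fell, with a median log2 fold change of -0.0084. The falls included Mbd3 and Chd3, subunits of the NuRD remodelling and deacetylase complex, at -1.54 and -1.69, and Sap30, a subunit of the SIN3 complex, rose by 0.72. Rest, the repressor altered in the heterozygous mice, averaged 73.8 ± 4.52 CPM with FK228 and 81.3 ± 5.42 CPM with solvent and did not pass (edgeR adjusted p = 0.141). Of 10 histone acetyltransferase genes 5 fell and 1 rose, with a median of -0.41. Crebbp, the CBP acetyltransferase, had 196, 218, 197 and 213 CPM in the 4 FK228 libraries, against 393, 367, 371 and 359 CPM in the 4 solvent libraries, all FK228 libraries below all solvent libraries (edgeR adjusted p = 7.85e-09), and Kat2b, Kat5 and Kat7 fell by values from -1.08 to -0.49. The single rise among acetyltransferases was lost without FK228 library 1, FK228 library 7 or solvent library 4. Of 14 acetyl-lysine readers and elongation factors 3 rose and 4 fell, with a median of 0.11 that was -0.048 under spike-in scaling; Eaf2 was the largest riser and Brd9, a bromodomain subunit of SWI/SNF, the lowest at -1.22.

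Most linker histone and replacement histone genes rose. Of 16 such genes 9 rose and 2 fell, with a median of 0.58; without solvent library 2 only 1 fell. H1f0, the linker histone of non-dividing cells and a gene long known to rise with deacetylase inhibitors, had 314, 286, 274 and 298 CPM with FK228, against 98.4, 90.6, 86.7 and 98.3 CPM with solvent. The libraries of each group were close together and the groups far apart, with a rise of 3.13-fold (edgeR adjusted p = 1.16e-10). Hist1h1c, another linker histone, averaged 12.4 ± 2.36 CPM with FK228 and 1.96 ± 0.273 CPM with solvent, and H2afy2, a macroH2A gene, fell by 2.88-fold. Of 22 genes known to rise with such inhibitors in other cells 11 rose and 3 fell, with a median of 0.57; without solvent library 1 a single one fell. They included Hspa2, a heat shock protein, at 1.61, and Txnip, the inhibitor of thioredoxin, at 1.89, which shares 19.4% of its exon bases with an antisense transcript. Among 9 replication-dependent histone genes above the filter 5 rose and none fell (median 0.61), but 55 listed genes did not pass the filter, so that these counts do not stand for the family.

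Most genes of the high mobility group and related nucleosome-binding proteins fell. Of 16 tested 3 rose and 10 fell, with a median of -0.46. Hmgn2, which binds nucleosomes, had 161, 175, 154 and 151 CPM in the 4 FK228 libraries, against 454, 521, 487 and 422 CPM in the 4 solvent libraries. All FK228 libraries were far below all solvent libraries, 2.94-fold on average (edgeR adjusted p = 5.72e-10). Anp32b, Hmgb3 and Hmgb1 fell by log2 values of -1.45, -1.38 and -0.98. Both Hmgn2 and Hmgb1 have many processed pseudogenes, which makes their counts uncertain. Of 19 SWI/SNF subunits 2 rose and 9 fell, with a median of -0.27. Dpf1, the neuronal subunit, rose to 11.1 CPM with FK228, against 2.02 CPM with solvent, and Arid1a, Smarcb1 and Actl6a fell by values from -0.73 to -0.56. Polycomb and DNA methylation genes were split, 9 of 22 up and 4 down with a median of 0.23 (3 and 4 under spike-in scaling), with the DNA methyltransferase Dnmt3a at -0.70 and Ezh1, a Polycomb methyltransferase, at 0.64.

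Most genes of the cell cycle list fell. Of 22 cyclins, cyclin-dependent kinases and mitotic genes 17 fell and 1 rose, with a median of -1.04, and their summed level was 1262 to 1474 CPM in FK228 libraries, against 1574 to 2089 CPM in solvent libraries. The single rise was not called without any 1 of 6 libraries, FK228 libraries 1, 2, 4 or 7 or solvent libraries 1 or 4. Ccnd1, cyclin D1, had 19.5, 27.2, 22.6 and 21 CPM with FK228, against 45.3, 84.6, 71.2 and 57.3 CPM with solvent. The groups did not overlap, and the fall was 2.86-fold (edgeR adjusted p = 2.14e-07); 23.4% of its exon bases overlap another gene. Cdk6, its partner kinase, averaged 89.4 ± 7.04 CPM with FK228 and 199.9 ± 39 CPM with solvent, Cdk4 240.0 ± 14.9 CPM with FK228 and 378 ± 27.4 CPM with solvent and Ccna2, cyclin A2, 5.54 ± 0.837 CPM with FK228 and 16.7 ± 4.93 CPM with solvent. Of 23 DNA replication genes 10 fell and 2 rose, with a median of -0.33 (-0.20 without solvent library 2), led by the helicase subunits Mcm5 at -1.57 and Mcm3 at -1.12.

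Myc, a driver of growth and division, had 14.8, 18.5, 16.9 and 12.4 CPM in the 4 FK228 libraries, against 49.6, 48.4, 52.8 and 47.1 CPM in the 4 solvent libraries. Every FK228 library was under every solvent library, and the fall was 3.16-fold (edgeR adjusted p = 1.76e-08). Of 11 genes of the MYC family and its partners 5 rose and 4 fell, with a median of 0.13 that was -0.046 under spike-in scaling, and without solvent library 3 only 2 fell. Mxd1 and Mlxip, partners in the same network, rose by 0.89 and 0.71. Of 8 CDK inhibitor genes 2 rose and 1 fell (median 0.37). Cdkn2c averaged 5.86 ± 0.96 CPM with FK228 and 2.76 ± 0.6 CPM with solvent and rose, while Cdkn1b, the inhibitor that keeps supporting cells out of the cell cycle, averaged 200.2 ± 18.8 CPM with FK228 and 269 ± 25.9 CPM with solvent and fell. The fall of Cdkn1b was not called without FK228 library 1, 2 or 4 or solvent library 1, 2 or 4 (edgeR adjusted p from 0.0536 to 0.101).

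Hair cell genes fell more often than they rose. Of 9 hair cell transcription factors 3 fell and none rose, with a median of -0.40. Pou4f3, the POU factor that hair cells need to survive, had 28.5, 25.1, 20.8 and 26.1 CPM with FK228, against 39.8, 29.8, 29.6 and 33.2 CPM with solvent. The fall was small (log2 fold change -0.40 ± 0.16, edgeR adjusted p = 0.0406). It was not called without FK228 library 2, 4 or 7 or solvent library 1 or 4 (edgeR adjusted p from 0.061 to 0.141), and it was -0.16 with the share of reads outside genes as a covariate. Lhx3 averaged 1.54 ± 0.318 CPM with FK228 and 4.01 ± 0.6 CPM with solvent and Tbx2, a factor of inner hair cells, 2.21 ± 0.321 CPM with FK228 and 4.32 ± 0.686 CPM with solvent. Atoh1, the factor that starts hair cell formation, averaged 2.49 ± 0.83 CPM with FK228 and 1.99 ± 0.461 CPM with solvent and did not pass. Of 31 hair bundle and mechanotransduction genes 13 fell and 4 rose, with a median of -0.28, and 10 fell without solvent library 1 or FK228 library 4 or 7. Their summed level did not fall, with 674 to 726 CPM in FK228 libraries, against 588 to 673 CPM in solvent libraries. Ptprq, a phosphatase of the stereocilia base, averaged 7.02 ± 0.948 CPM with FK228 and 18.2 ± 5.37 CPM with solvent, and Grxcr2, a regulator of bundle shape, 3.7 ± 1.53 CPM with FK228 and 11.1 ± 1.93 CPM with solvent. Adgrv1, a protein of the ankle links, rose to 8.19 CPM with FK228, against 2.58 CPM with solvent, and Myo6, a motor of the hair cell apex, rose by 0.48.

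The hair cell list with the lowest median held synapse, channel and calcium buffer genes, where 10 of 22 fell, 1 rose and the median was -0.56. Chrna9, a subunit of the nicotinic receptor through which efferent nerves inhibit hair cells, had 3.23, 2.9, 1.57 and 1.3 CPM in the 4 FK228 libraries, against 17.8, 11.8, 10.7 and 12.1 CPM in the 4 solvent libraries. The highest FK228 value was under the lowest solvent value, with a fall of 5.82-fold (edgeR adjusted p = 2.84e-05). Chrna10, its partner subunit, averaged 3.55 ± 0.914 CPM with FK228 and 12.5 ± 1.9 CPM with solvent, and 39% of its exon bases overlap Art1. Otof fell by 0.57 ± 0.11 (edgeR adjusted p = 0.000314), Ctbp2, whose RIBEYE isoform builds the synaptic ribbon, by -0.65, and the calcium buffer Ocm, oncomodulin, by -0.82. Without solvent library 1 a second gene of this list rose.

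Of 25 supporting cell and prosensory genes 12 fell and 2 rose, with a median of -0.39, and a single rise was left without solvent library 2, 3 or 4 or FK228 library 2 or 7. The falls numbered 12 without FK228 library 2 and 9 or 10 without any of the other libraries. Gjb6, a connexin of the gap junctions between supporting cells, had 38.8, 55.1, 54.9 and 22.1 CPM with FK228, against 164, 129, 116 and 138 CPM with solvent. The groups were far apart, 3.21-fold (edgeR adjusted p = 2.41e-06), and its partner connexin Gjb2 averaged 117 ± 24.8 CPM with FK228 and 187 ± 20.8 CPM with solvent. Sox2, the prosensory transcription factor, fell by 0.86 on the log2 scale (edgeR adjusted p = 5.69e-05). Rorb, an orphan nuclear receptor, had 102, 107, 100.2 and 133 CPM in the 4 FK228 libraries, against 56.8, 51, 46.1 and 65.1 CPM in the 4 solvent libraries, and rose 2.02-fold (edgeR adjusted p = 1.07e-06). Of 15 tectorial membrane and otic matrix genes 5 fell and 1 rose (median -0.32), with the collagens Col11a2, Col2a1 and Col9a2 at -0.85, -0.76 and -0.68.

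Neuronal genes were split between rises and falls. Of 24 spiral ganglion neuron genes 9 rose and 7 fell, with a median of 0.32 (0.12 without solvent library 3 and 0.16 without solvent library 4). Beside Pou4f1, Mapt, which encodes the microtubule protein tau, had 52.3, 47.2, 53.8 and 66.7 CPM with FK228, against 16.5, 8.57, 9.24 and 10.6 CPM with solvent. All FK228 libraries exceeded all solvent libraries, 4.87-fold on average (edgeR adjusted p = 9.47e-09). Map2, another microtubule protein of neurons, averaged 123 ± 10.7 CPM with FK228 and 49 ± 10.3 CPM with solvent, and Tmem108, a membrane protein of neurons, 31.8 ± 4.31 CPM with FK228 and 9.94 ± 1.56 CPM with solvent. The general neuronal marker Tubb3 averaged 15.9 ± 0.657 CPM with FK228 and 13 ± 4.5 CPM with solvent and did not pass, and Elavl4 and Rbfox3, RNA-binding proteins of neurons, fell, with averages of 7.29 ± 2.34 CPM with FK228 and 13.7 ± 5.06 CPM with solvent and 4.68 ± 0.763 CPM with FK228 and 7.12 ± 0.946 CPM with solvent. Of 5 sensory neuron transcription factors Pou4f1 alone rose and Runx1 alone fell, at -1.64 (median -0.044 over the list); without solvent library 2 a second factor fell.

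REST target genes, the neuronal genes that the REST repressor holds down through class I deacetylases in other cells, rose in 16 of 39 cases and fell in 3, with a median of 0.47 (14 and 3 under spike-in scaling). Stx1a, the syntaxin of synaptic vesicle fusion, had 56.4, 44.2, 51.5 and 54.5 CPM in the 4 FK228 libraries, against 20.1, 20.4, 17.4 and 23.6 CPM in the 4 solvent libraries. No FK228 library reached down to the solvent range, and the rise was 2.54-fold (edgeR adjusted p = 6.47e-08). Mapk8ip2, a scaffold of neuronal kinases, and Syt7, a synaptotagmin, rose by 1.74 and 1.48. Cplx2, a complexin that acts on vesicle fusion, was among the 3 that fell. It had 95.1, 94.9, 86.3 and 102 CPM with FK228, against 281, 288, 298 and 239.6 CPM with solvent, without overlap and 2.93-fold lower (edgeR adjusted p = 1.1e-10).

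Of 53 synaptotagmin, SNARE and complexin genes 20 rose and 7 fell, with a median of 0.21, led on the rising side by Syt13 at 19.9 CPM with FK228, against 4.61 CPM with solvent; Vamp8 and Stx4a, SNAREs of non-neuronal secretion, fell by log2 values of -1.03 and -0.97. Of 33 sodium and calcium channel subunits 13 rose and 5 fell (median 0.45, or 0.71 without solvent library 2), including Cacng8, Cacnb3 and Cacna1b at 1.64, 0.63 and 2.24, while Cacna2d1 fell by 1.04. Potassium channel subunits gave 9 rises and 11 falls of 59 (median -0.35), and glutamate, GABA and glycine receptors 5 and 10 of 34 (median -0.30, or -0.16 without FK228 library 1), of which 3 rose without FK228 library 4 or 7. The potassium channel subunit Kcnab2 averaged 28.4 ± 2.52 CPM with FK228 and 6.59 ± 1.4 CPM with solvent.

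Splicing regulators gave 8 rises and 8 falls of 25 (median 0.19, or 0.13 without solvent library 2 and 0.10 without solvent library 3), with 5 rises without solvent library 4. Celf5 averaged 22.5 ± 1.43 CPM with FK228 and 3.75 ± 0.81 CPM with solvent and Celf4 26.5 ± 0.906 CPM with FK228 and 14.4 ± 1.07 CPM with solvent, and both rose. Ptbp2, the neuronal polypyrimidine tract binding protein, averaged 21.6 ± 0.868 CPM with FK228 and 39.4 ± 3.78 CPM with solvent and Esrp1, the epithelial splicing factor, 21 ± 1.32 CPM with FK228 and 35.8 ± 5.38 CPM with solvent, and both fell. Axon guidance genes fell in 10 of 30 cases and rose in 3 (median -0.036), or 1 without solvent library 1, with the semaphorin receptor Nrp1 at -1.10 and its ligand Sema3a at -1.03.

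Macrophage and microglia genes fell in 19 of 20 cases, where 25.3% of all genes tested fell, with a median of -2.89, and their summed level was 196 to 222 CPM in FK228 libraries, against 703 to 768 CPM in solvent libraries. C1qa, a chain of the complement component C1q made by macrophages, had 4.25, 5.25, 4.46 and 3.56 CPM in the 4 FK228 libraries, against 33.6, 33.7, 35.7 and 32.5 CPM in the 4 solvent libraries. Both groups were tight and did not overlap, 7.74-fold apart (edgeR adjusted p = 1.06e-09). Csf1r, the receptor these cells need to survive, averaged 3.15 ± 1.27 CPM with FK228 and 24.6 ± 0.947 CPM with solvent, Fcer1g, a signalling chain of Fc receptors, 4.22 ± 0.979 CPM with FK228 and 22.6 ± 1.89 CPM with solvent, and Cd68 of their lysosomes 8.95 ± 0.612 CPM with FK228 and 37.3 ± 3.95 CPM with solvent.

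Mesenchyme genes fell in 18 of 20 cases, with a median of -0.69 and a summed level of 2828 to 3518 CPM in FK228 libraries, against 4787 to 5990 CPM in solvent libraries. With 1 library left out the falls of this list numbered 13 to 16. Prrx1, a homeobox factor of mesenchyme, had 2.44, 4.04, 4.46 and 2.83 CPM with FK228, against 20.1, 16.6, 20.4 and 20.5 CPM with solvent. The groups lay 5.64-fold apart without overlap (edgeR adjusted p = 8.34e-09). Pou3f4, the POU factor of otic mesenchyme that is mutated in an X-linked deafness, averaged 59.1 ± 4.97 CPM with FK228 and 135 ± 16.7 CPM with solvent, and the receptor Pdgfra 31.9 ± 4.56 CPM with FK228 and 67 ± 4.59 CPM with solvent. Col1a1, a chain of type I collagen, was the single riser of the list. It had 140.3, 94.2, 100.2 and 154 CPM in the 4 FK228 libraries, against 36.5, 48.6, 56.3 and 40.4 CPM in the 4 solvent libraries (edgeR adjusted p = 0.000461), while Col1a2, the other chain, fell, with 637 ± 46.7 CPM with FK228 and 826 ± 73 CPM with solvent.

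Glial, vascular, cartilage and pigment cell lists also had medians below 0. Schwann cell and myelin genes fell in 8 of 16 cases and rose in 4 (median -0.40), with Pmp22 and Mal of myelin at -1.33 and -1.67 and Pou3f1, a POU factor of myelinating Schwann cells, at 2.75. The summed level of this list went the other way from its median. It was 1590 to 1848 CPM in FK228 libraries, against 1166 to 1299 CPM in solvent libraries. Endothelial and pericyte genes fell in 8 of 18 cases and rose in 1 (median -0.54), with Emcn, Kcnj8 and Abcc9 at -1.94, -1.94 and -1.58, while the endothelial markers Pecam1 and Kdr averaged 38.3 ± 5.86 CPM with FK228 and 44.5 ± 8.39 CPM with solvent and 16.6 ± 1.84 CPM with FK228 and 19.5 ± 2.45 CPM with solvent and did not pass. Cartilage genes fell in 7 of 12 cases and rose in 2 (median -0.54), with Chad, a cartilage matrix protein, at -2.12. Melanocyte and stria vascularis genes fell in 7 of 15 cases and none rose (median -0.75), but without solvent library 1 there were 4 falls and 2 rises (median -0.45), and without FK228 library 4 there was 1 rise. The median was -0.49 without FK228 library 7. Tyr, the tyrosinase of pigment synthesis, averaged 5.75 ± 3.51 CPM with FK228 and 16.7 ± 5.54 CPM with solvent and the endothelin receptor Ednrb 229 ± 58 CPM with FK228 and 503 ± 120.4 CPM with solvent. Red blood cell genes were near 0 in both groups. Their sum over the 9 matched genes was 0.906 to 1.97 CPM with FK228 and 0.254 to 1.46 CPM with solvent. Of the 2 genes above the filter 1 rose without solvent library 3.

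**Figure D3:**
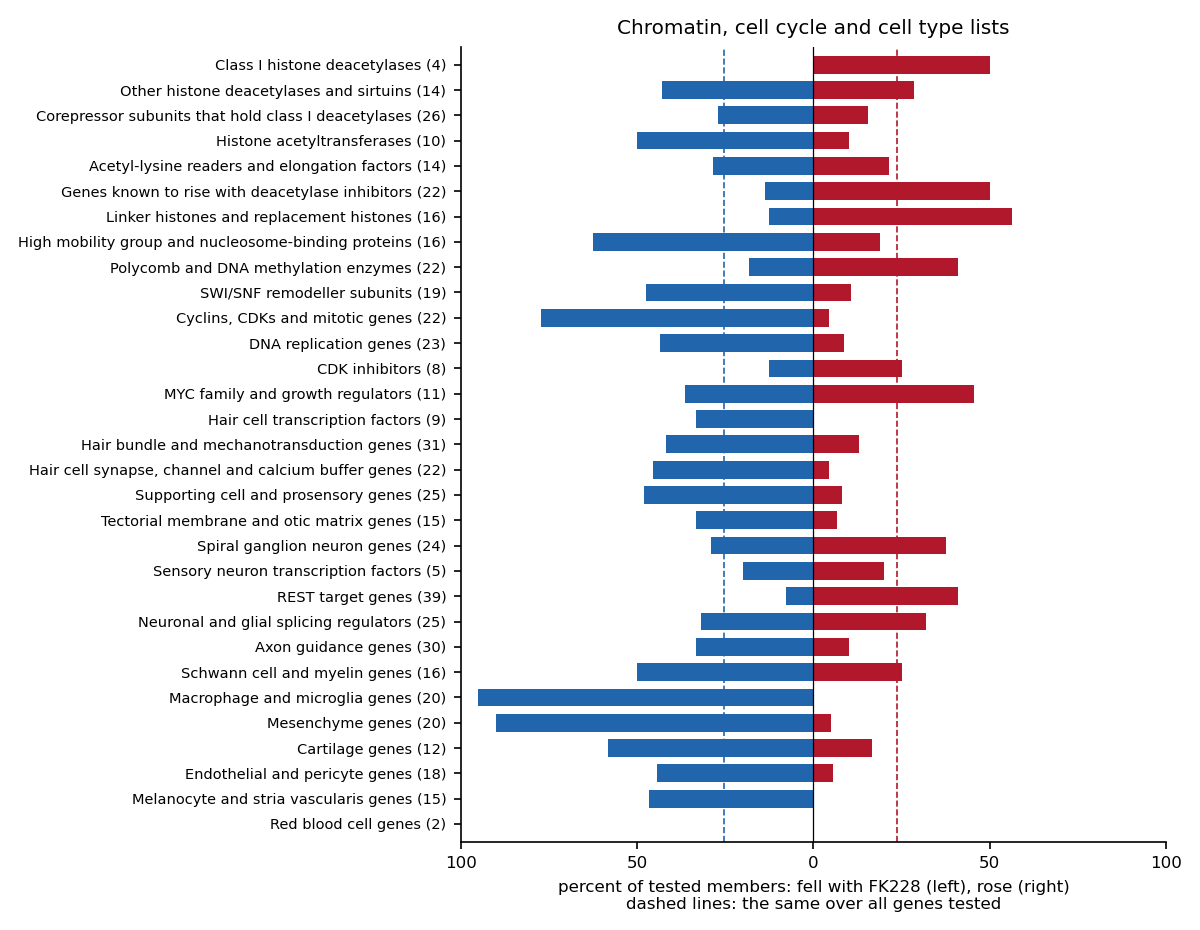
Percent of the tested members of each chromatin, cell cycle and cell type list that fell with FK228 (bars to the left) or rose (bars to the right), with the number tested in brackets; dashed lines mark the 25.3% that fell and the 23.7% that rose among all genes tested. Macrophage and mesenchyme genes have the longest bars to the left, with 19 of 20 and 18 of 20 members, and the bars of spiral ganglion genes reach to both sides.

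Among the signalling lists, those of the TGF-beta and of the FGF and BMP pathways had the largest shares of falls. Of 21 TGF-beta pathway genes 10 fell and none rose, with a median of -0.58; without solvent library 3 or FK228 library 2 there was 1 rise. Ltbp1, which stores latent TGF-beta in the matrix, had 108, 132, 118 and 89.3 CPM with FK228, against 463, 380.1, 386 and 404 CPM with solvent. All FK228 libraries were below all solvent libraries, 3.65-fold on average (edgeR adjusted p = 6.05e-10). The ligand Tgfb3 averaged 43.8 ± 8.36 CPM with FK228 and 139 ± 10.5 CPM with solvent, the activin subunit Inhba 6.47 ± 1.62 CPM with FK228 and 22.2 ± 0.89 CPM with solvent, and the receptor Tgfbr2 20 ± 4.32 CPM with FK228 and 46.8 ± 3.86 CPM with solvent. Of 32 FGF and BMP pathway genes 17 fell and 1 rose (median -0.49), and the single rise was lost without FK228 library 1, 2 or 7 or solvent library 1, 3 or 4. With 1 library left out 12 to 16 of these genes fell. Spry2, a feedback inhibitor of FGF signalling, averaged 427 ± 54 CPM with FK228 and 820.0 ± 53.9 CPM with solvent, the FGF target Etv4 3.38 ± 1.36 CPM with FK228 and 12.1 ± 1.68 CPM with solvent, and the ligand Bmp5 8.46 ± 0.89 CPM with FK228 and 22.9 ± 4.05 CPM with solvent, which shares 46.7% of its exon bases with another transcript.

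Of 34 Wnt pathway genes 7 rose and 8 fell, shares near those of all genes tested (median -0.17, or -0.094 without solvent library 1), or 2 and 12 under spike-in scaling, and 3 rose without solvent library 2 and 4 without FK228 library 2. The ligand Wnt5a, which guides cell polarity in the organ of Corti, had 53.4, 76.6, 65.7 and 63.1 CPM in the 4 FK228 libraries, against 186, 178, 198 and 179 CPM in the 4 solvent libraries. The groups did not overlap, with a fall of 2.87-fold (edgeR adjusted p = 5.72e-10). Lgr5, a Wnt receptor partner of supporting cells, fell by 0.72, and Nkd1, an inhibitor induced by Wnt, rose by 0.72. Of 23 Notch pathway genes 4 rose and 6 fell (median -0.21, or -0.099 without solvent library 4 and -0.13 without FK228 library 4), while without FK228 library 7 or solvent library 3 or 4 there were 4 rises and 3 falls. Dtx1 rose to 6.06 CPM with FK228, against 0.951 CPM with solvent, Numb, a Notch inhibitor, rose by 0.63, and the target Heyl fell by 0.98. Of 19 Hedgehog and Hippo pathway genes 7 fell and 1 rose (median -0.37, or -0.18 without solvent library 2), or 4 falls without solvent library 2 or FK228 library 7 and 2 rises without solvent library 1. They included the Hedgehog transducer Smo at -1.11 and the Hippo partners Tead2 and Yap1 at -1.04 and -0.62.

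The stress lists gave no common direction. Of 32 p53 target and apoptosis genes 9 rose and 8 fell, shares near those of all genes tested. Their median was 0.13, or -0.038 under spike-in scaling. The pro-apoptotic genes Bid and Bik rose by 0.87 and 1.33, while the caspase gene Casp8 fell by 1.30. Of 20 immediate early and AP-1 genes 3 rose and 3 fell (median 0.23, or 0.13 without FK228 library 1 or solvent library 4), or 5 fell without FK228 library 2, among them Nr4a2 at 1.38 and Fosl2 at -1.32. Of 22 genes of endoplasmic reticulum stress and the integrated stress response 9 fell and 1 rose, with a median of -0.038. There were 4 rises without FK228 library 2, 3 without solvent library 1, 2 without solvent library 2 or FK228 library 4, and 1 without any of the other libraries. Herpud1, a factor of the degradation of misfolded proteins, had 111, 129, 123 and 119.6 CPM with FK228, against 269.9, 263, 265 and 280.1 CPM with solvent, without overlap and 2.23-fold lower (edgeR adjusted p = 5.52e-10). Atf4, the transcription factor of the integrated stress response, and its targets Chac1 and Trib3 fell by log2 values of -0.70, -1.57 and -1.35.

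Of 29 antioxidant and metal-binding genes 11 rose and 10 fell, with a median of 0.080 that was -0.067 under spike-in scaling. Sephs1, a paralog of selenophosphate synthetase, had 54.9, 67.7, 57.6 and 53.8 CPM in the 4 FK228 libraries, against 251, 243, 275 and 203 CPM in the 4 solvent libraries. The groups were far apart, with a fall of 4.15-fold (edgeR adjusted p = 3.36e-11). Gpx7, a glutathione peroxidase of the endoplasmic reticulum, averaged 32 ± 3.69 CPM with FK228 and 107 ± 11 CPM with solvent, and the metallothionein Mt1 81.3 ± 5.79 CPM with FK228 and 27.8 ± 4.47 CPM with solvent. Of 20 heat shock chaperones 7 rose and 4 fell, with a median of 0.11 that was -0.043 under spike-in scaling, and Cryab, a small heat shock protein, fell to 81 CPM with FK228, against 223 CPM with solvent. Of 32 interferon and antigen presentation genes 9 rose and 7 fell, shares near those of all genes tested (median 0.21, or 0.12 without FK228 library 1). Stat2, a transcription factor of the interferon response, had 57.8, 55, 82.2 and 63.4 CPM with FK228, against 16.8, 18, 24.9 and 24 CPM with solvent, and rose 3.09-fold (edgeR adjusted p = 2.8e-08). Ifitm3, an antiviral membrane protein, averaged 49.1 ± 9.59 CPM with FK228 and 148 ± 5.6 CPM with solvent and fell.

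The metabolic lists gave no common direction either. Of 22 glycolysis enzymes and transporters 7 fell and 5 rose, shares near those of all genes tested (median -0.24, or -0.076 without solvent library 4). Hk1, the neuronal enolase Eno2 and Pfkp rose by 0.66, 1.01 and 0.85, and Pfkl fell by 0.77. Of 23 cholesterol genes 7 rose and 1 fell, or 2 fell without FK228 library 4, with a median of 0.12; under spike-in scaling 1 rose and 1 fell and the median was -0.039. Of 26 fatty acid genes 11 rose and 6 fell with a median of 0.16, or 0.25 without solvent library 1 (6 and 6 under spike-in scaling), led by Acsl3 and Elovl5 at 0.87 and 0.83. Of 27 lysosome and autophagy genes 5 rose and 8 fell, or 5 without solvent library 1, with a median of 0.059 that was -0.092 under spike-in scaling. Map1lc3b, the LC3 protein of autophagosomes, had 539.5, 461, 459 and 541 CPM in the 4 FK228 libraries, against 277, 228, 219 and 234 CPM in the 4 solvent libraries. Its groups did not overlap and it rose 2.09-fold (edgeR adjusted p = 1.42e-08). Of 20 aminoacyl-tRNA synthetases 10 fell and 2 rose, or 4 without solvent library 2, with a median of -0.25.

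The protein synthesis and respiration lists depended on the scaling. Of 78 cytosolic ribosomal protein genes 30 rose and 4 fell, with a median of 0.15, but under spike-in scaling 1 rose and 7 fell and the median was -0.0069. Leaving out solvent library 3 left 15 rises and leaving out FK228 library 1 left 17, and the falls numbered 2 to 7 when solvent library 1, 2 or 4 or FK228 library 1 or 4 was left out. These genes also have many processed copies. Of 75 nuclear genes of oxidative phosphorylation 24 rose and 15 fell with a median of 0.068, against 7 and 13 with a median of -0.084 under spike-in scaling. None of 7 mitochondrially encoded genes passed (median -0.055), although 1 rose without solvent library 1. The share of gene counts in the mitochondrial genome was 0.252 ± 0.0136% with FK228 and 0.236 ± 0.0147% with solvent (exact two-sided permutation test, p = 0.229).

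Most matrix and adhesion genes fell. Of 39 collagen chains 23 fell and 5 rose, with a median of -0.59. Col8a1, a short-chain collagen, had 15.4, 24, 28.8 and 14.8 CPM with FK228, against 117, 102, 141 and 109.5 CPM with solvent. FK228 libraries were far below solvent libraries, 5.67-fold on average (edgeR adjusted p = 2.18e-08). Col14a1 and Col5a2 fell by log2 values of -2.17 and -1.47. Of 37 genes of matrix metalloproteinases, ADAMTS proteases and their inhibitors 21 fell and 2 rose (median -0.75), or 1 rose without solvent library 3 or FK228 library 7. Mmp14, a membrane-bound metalloproteinase, had 95.9, 148, 116 and 88.8 CPM in the 4 FK228 libraries, against 407, 303, 335 and 366 CPM in the 4 solvent libraries, a fall of 3.14-fold (edgeR adjusted p = 4.59e-08). Of 39 claudins, connexins and cadherins 21 fell and 4 rose (median -0.48), or 2 rose without FK228 library 4, and beside the rise of Cldn10 there were falls of the cadherins Cdh11 and Cdh6 at -0.97 and -1.72.

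Clustered protocadherins, the adhesion proteins whose genes lie in tandem arrays and give neurons their surface identity, fell in 30 of 41 cases, with 1 rise and a median of -1.25. Pcdhb17 had 6.75, 7.06, 5.43 and 7.12 CPM with FK228, against 21, 13.8, 18.3 and 19.8 CPM with solvent, without overlap and 2.77-fold lower (edgeR adjusted p = 2.08e-06). Pcdhb20, Pcdhb9 and Pcdhb11 fell by log2 values of -1.61, -1.60 and -2.14. These genes are near copies of each other and the last exons of the gamma array are shared, so that single members are uncertain. Of 11 protocadherins outside the arrays 2 fell and 1 rose (median -0.14); 2 rose without solvent library 1 and 3 without FK228 library 2.

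Of 359 Zfp zinc finger genes 100 fell and 31 rose, with a median of -0.18 (112 and 14 under spike-in scaling); Zfp532 and Zfp827 fell by log2 values of -1.36 and -1.17, and Zfp612 rose by 1.06. Of 257 solute carriers 77 rose and 79 fell with a median of 0.065, against 43 and 81 with a median of -0.086 under spike-in scaling. Kinesins rose in 12 of 36 cases and fell in 8 with a median of 0.028, against 6 and 9 with a median of -0.12 under spike-in scaling, and the risers included the neuronal motors Kif1a and Kif5c at 1.00 and 1.48. Sox genes fell in 6 of 14 cases and none rose (median -0.50), and forkhead genes fell in 7 of 24 and rose in 2 (median -0.21). The summed level of the Sox genes was nonetheless 6657.5 to 7390.5 CPM in FK228 libraries, against 5653 to 6208 CPM in solvent libraries. Of 14 tubulin genes 6 rose and 4 fell (median 0.34). Of 11 keratins 1 rose and 3 fell (median -0.28, or -0.047 without solvent library 2 and -0.040 without solvent library 3). Another 39 of the 50 listed keratins were below the filter, so that these counts do not stand for the family. Krt7 of simple epithelia averaged 49.5 ± 14.9 CPM with FK228 and 184 ± 112 CPM with solvent. Imprinted genes gave 11 rises and 8 falls of 36, with a median of 0.039 that was -0.12 under spike-in scaling. Peg12 averaged 106 ± 7.45 CPM with FK228 and 332 ± 34.4 CPM with solvent and H19 102 ± 34.2 CPM with FK228 and 295 ± 40.7 CPM with solvent, and both fell.

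**Figure D4:**
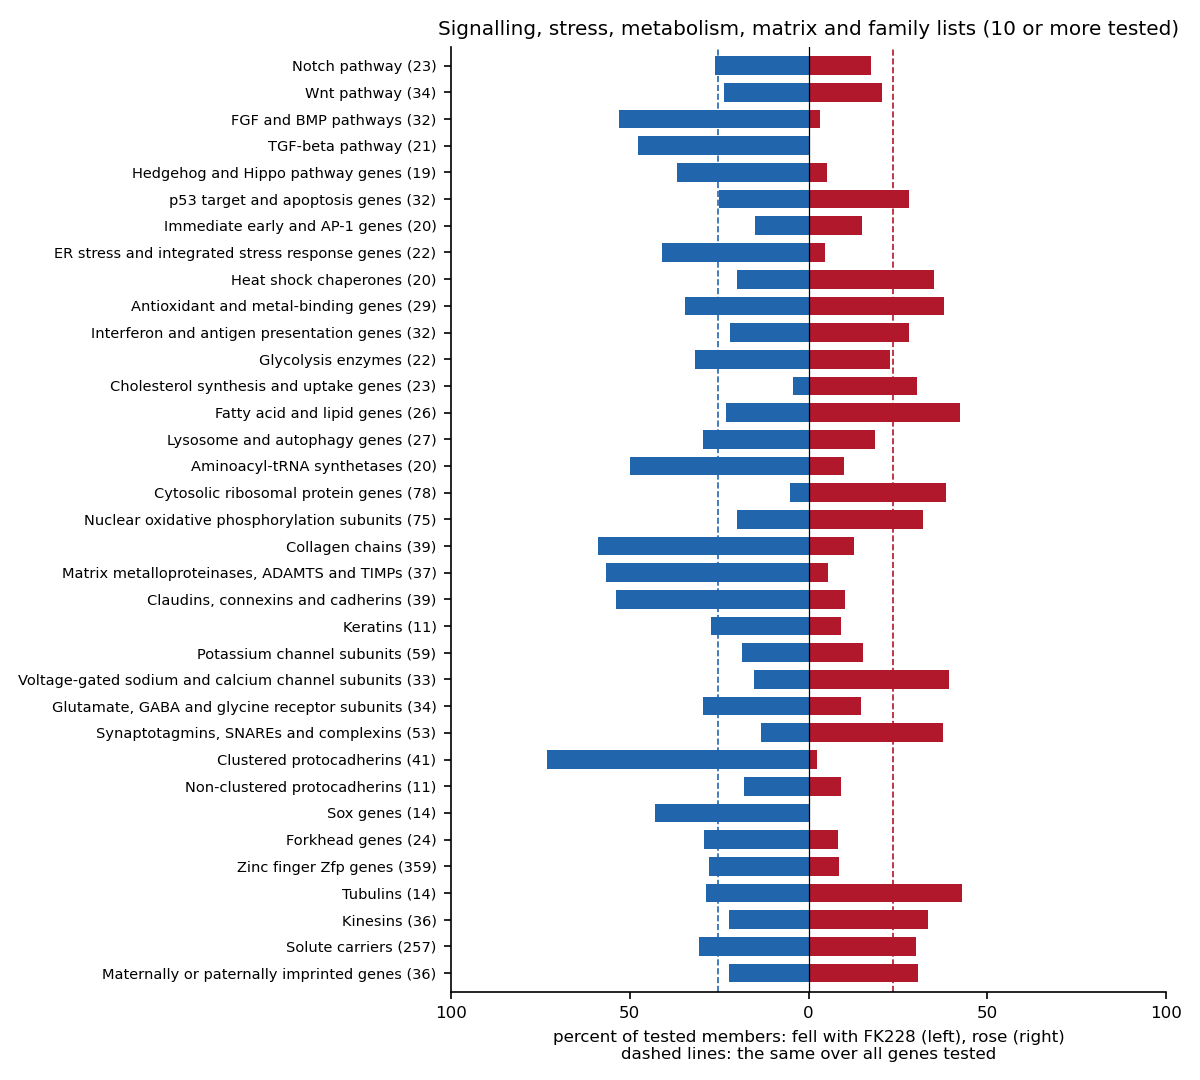
Percent of the tested members of each signalling, stress, metabolic, matrix and gene family list of at least 10 tested genes that fell with FK228 (bars to the left) or rose (bars to the right), with the number tested in brackets; dashed lines mark the 25.3% that fell and the 23.7% that rose among all genes tested. The bar of clustered protocadherins reaches farthest to the left, with 30 of 41 members, and no TGF-beta or Sox gene lies to the right.

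Genes known from other tissues were also read, as a check for transcripts out of place. Many of them were close to silent in solvent cultures and pass the filter only where a group is high, so that counts of calls over the members that passed would not stand for the lists, and none is given. Of 32 listed germ cell and testis genes 14 passed the filter. Ddx4, a germ cell helicase, averaged 3.3 ± 1.28 CPM with FK228 and 0.557 ± 0.502 CPM with solvent, Tdrd1, a protein of germ granules, 2.76 ± 0.627 CPM with FK228 and 0.405 ± 0.232 CPM with solvent, and Prdm9, the factor that places meiotic crossovers, 16.9 ± 2.64 CPM with FK228 and 7.76 ± 1.95 CPM with solvent; all 3 rose. Of 23 muscle genes 13 passed the filter, among them Mylpf, a muscle light chain, which rose by 1.25. Of 17 liver, pancreas and gut genes 5 passed the filter, and Ttr, transthyretin, fell, with averages of 5.89 ± 2.51 CPM with FK228 and 17.9 ± 2.55 CPM with solvent. Of 24 brain and retina genes 12 passed the filter. Lhx6, a factor of forebrain interneurons, averaged 4.18 ± 1 CPM with FK228 and 0.251 ± 0.372 CPM with solvent and rose, and Emx2, which also acts in the ear, averaged 8.03 ± 1.53 CPM with FK228 and 16.1 ± 2.3 CPM with solvent and fell. Of 39 Hox genes 5 passed the filter; Hoxb13 and Hoxa7 rose and Hoxa2 fell, and Hoxb13 and Hoxa2 had next to no counts in the group where they were low. Hoxa2 and Hoxa7 share 15% and 20.4% of their exon bases with other transcripts.

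Some genes were close to silent in 1 group. Chosen after their values were seen, 19 genes had at most 3 counts in all 4 solvent libraries together and at least 10 counts in each FK228 library, and 7 had the reverse. Slc30a3, a zinc transporter of synaptic vesicles, had 107, 82, 98 and 106 counts in the FK228 libraries and 0, 1, 0 and 0 counts in the solvent libraries. Hapln4, a link protein of perineuronal matrix, had 62, 74, 67 and 62 counts with FK228 and 0 in each solvent library. Hoxb13 had 25, 16, 27 and 12 counts with FK228, and the developmental transcription factor Pax9 had 13, 13, 17 and 15, both with 0 counts in all 4 solvent libraries. A count of 0 over the 4 solvent libraries allows a level of up to 0.0387 CPM, by counting error only. Others of the 19 were the transcription factors Onecut3, Vax2, Lhx5 and Dmrt2 and the receptors Chrm4, Adrb3 and Hrh1. Of the 7 that went the other way, Msr1, a macrophage scavenger receptor, had 2, 0, 0 and 0 counts with FK228 and 19, 34, 33 and 41 with solvent, and Hoxa2, a Hox factor of the hindbrain and branchial arches, had 0, 1, 0 and 0 counts with FK228 and 20, 15, 19 and 22 with solvent. Csf3r and Tlr7, also known from myeloid cells, belonged to this set.

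The calls were also read by the level, the length and the place of the gene. Genes were ranked by their mean CPM in the heterozygous solvent libraries, which the contrast did not use. In the lowest decile 490 genes rose and 101 fell, with a median log2 fold change of 0.49, and in the highest decile 438 rose and 579 fell. The direction in the highest decile turned with the ranking: by the mean of all 16 libraries 535 rose and 487 fell. Genes of the lowest decile pass the filter only where another group is higher, and ranked by the mean of all 16 libraries the lowest decile had 271 rises and 212 falls with a median of 0.061. Of changes of at least 2-fold in the highest decile 12 were rises and 73 falls (28 and 51 with the other ranking). Among protein-coding genes ranked by length, the top decile, with spans of 137 to 2961 kb, had 263 rises and 470 falls and a median of -0.15, while the eighth decile, of 49.4 to 76.7 kb, had 422 rises and 335 falls. Protein-coding genes gave 3620 rises and 4024 falls of 14482, and long non-coding RNA genes 87 and 62 of 404. Rises were 33.8% of the calls on chromosome X (91 rises, 178 falls) and 36.8% on chromosome 18 (89 rises, 153 falls), against 59.3% on chromosome 8 (280 rises, 192 falls). Chromosome 18 carries the protocadherin arrays, and their part in its share of falls was not tested.

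The promoter windows of the genes that fell most differed in composition from the others. RefSeq windows of 300 bases on GRCm38.p6 were found for 11961 genes tested. The median window held 17 CpG dinucleotides in the 829 genes that rose at least 2-fold, 9 in the 976 genes that fell at least 2-fold and 20 in all windows. At least 1 GC box was found in 61.6% of the windows of risers, 40.9% of fallers and 63% of all windows, and a CCAAT box in 44.4%, 31.6% and 38.3%. A TATA box was found in 9.53%, 11.4% and 7.42%, an AP-1 word in 3.74%, 6.15% and 3.50%, and a CRE in 3.02%, 1.23% and 3.14%. Among the 1070 windows with 0 to 4 CpG, 22.1% of the genes fell at least 2-fold and 10.2% rose at least 2-fold, whereas among the 850 windows with 40 to 65 CpG 3.88% fell and 3.41% rose by that much. Between these ends the share of 2-fold falls was 18.6% at 5 to 9 CpG, 9.19% at 10 to 14 and 5.38% at 15 to 19. Rises of 2-fold, like falls, were thus most frequent in the lowest of these bins. The windows of Fshb, Dio2 and Lyz2 belong to it, as do those of the risers Cldn10 with 4 CpG and Dbpht2 with 1, while that of Pou4f1 belongs to the highest. These are counts of letters, and no test was made on them.

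**Figure D5:**
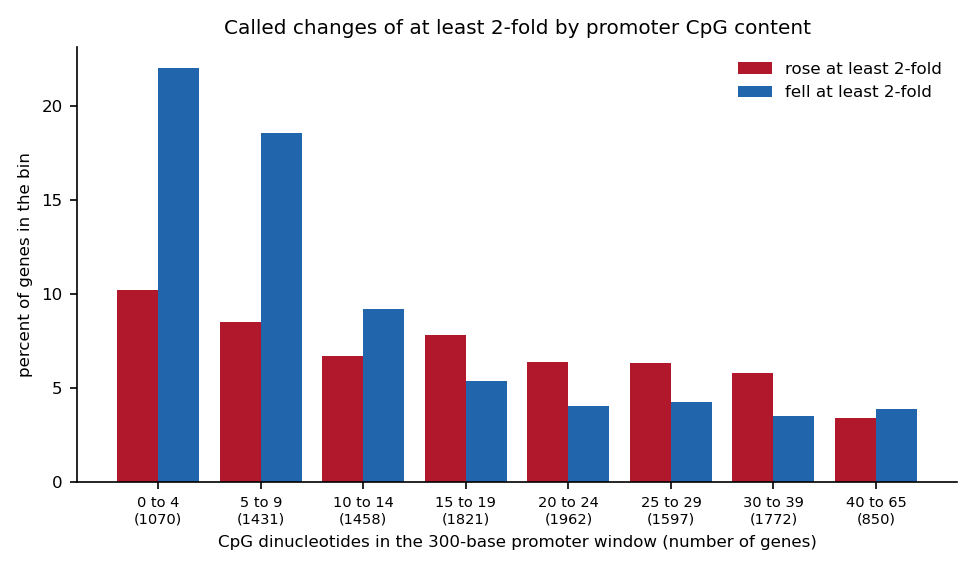
Percent of genes that rose or fell at least 2-fold with FK228, in 8 bins of the number of CpG dinucleotides in the 300-base promoter window. Falls are 22.1% of genes in the bin of 0 to 4 CpG and 3.88% in the bin of 40 to 65 CpG, and rises 10.2% and 3.41% in the same bins.

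The response was then set beside that of the heterozygous cultures, in which 8295 genes were called (48.4%), 23.8% of the genes tested higher and 24.7% lower. Of the wild-type calls 6743 (80.3%) were called in the same direction there, which is 81.3% of the heterozygous calls, and 6 were called in the opposite direction. Of the 2-fold changes 2274 (84.1%) were called in the same direction. The difference of the FK228 effects between genotypes, wild type minus heterozygous, passed in 4 genes (0.0234%), named for it after their values were seen: Atp2a3, Cplx2, Snap25 and Sncb, and 995 genes had an unadjusted p under 0.05. DESeq2 called 16 genes, limma voom 2 and spike-in scaling 4069. The spike-in share was 0.312% to 0.393% in heterozygous FK228 libraries, against 0.165% to 0.232% in heterozygous solvent libraries.

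Atp2a3, which encodes the SERCA3 calcium pump, had 10.9, 14.1, 13.8 and 12.4 CPM in the 4 FK228 libraries, against 12.7, 8.13, 7.84 and 10.3 CPM in the 4 solvent libraries. The groups overlapped and the difference did not pass in wild type (edgeR adjusted p = 0.132, or 0.0472 without solvent library 1), while the log2 fold change was 3.52 in heterozygous cultures and the difference -3.13 ± 0.37 (edgeR adjusted p = 0.0014). Snap25, a SNARE of synaptic vesicle fusion, had 49.4, 40.9, 42.2 and 61.3 CPM with FK228, against 27.9, 19.3, 13.7 and 13 CPM with solvent. It rose 2.62-fold in wild type, and by a log2 value of 3.50 in heterozygous cultures (difference -2.12 ± 0.35, edgeR adjusted p = 0.0429). Sncb, beta-synuclein, rose in wild type by 1.31 and in heterozygous cultures by 3.95 (difference -2.65 ± 0.41, edgeR adjusted p = 0.0244). Cplx2 fell in both genotypes, by log2 values of -1.55 in wild type and -2.35 in heterozygous cultures (difference 0.80 ± 0.10, edgeR adjusted p = 0.00328).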

How the data were processed

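The authors deposited unstranded and stranded read counts per gene. The submitters' processing notes name STAR 2.5.2a and the build GRCm38.p4, and the annotation used for counting is not given in the sources used here. A table of normalized values made with DESeq2 was not used. The unstranded counts of 48709 gene identifiers were used, and 48349 were found in GENCODE M21, the source of names, spans and overlaps. Rows that name no gene and the spike-in RNAs stayed out of library sizes. All 16 libraries were fitted in edgeR 4.0.16 (R 4.3.3) with a mean for each of 4 groups, TMM factors and filterByExpr (minimum count 10, total 15), and FK228 was set against solvent in wild type by the quasi-likelihood test, with Benjamini-Hochberg adjustment over 17125 genes. The fit was tested on simulated data. Alternatives were DESeq2 1.42.0, limma 3.58.1 voom with quality weights, RLE factors, spike-in scaling, no filter and a stricter one (1 CPM in 4 libraries, 50 counts in all), only the 8 wild-type libraries, a replicate block, no mitochondrially encoded genes, covariates for the share of reads outside genes and for Xist, and leaving out each library. Library measures were compared by exact permutation tests over 4 and 4 libraries, whose smallest p is 0.0286, with Python 3.11.15, pandas 2.3.3, numpy 2.4.6, scipy 1.17.1 and matplotlib 3.10.9. Promoter windows came from RefSeq on GRCm38.p6.

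Named genes were, among called genes without overlap and with at least 10 CPM in the higher group, the 12 with the largest and the 12 with the lowest log2 fold change, the 8 with the largest gain and the 8 with the largest loss of mean CPM, up to 4 members of each list by p, and up to 6 by the difference between genotypes. The markers Otof, Myo7a, Atoh1, Csf1r, Col1a1, Elavl4, Rbfox3, Tubb3, Pecam1 and Kdr were named as such, and Tecta, Col1a2 and Sncb were chosen after their values were seen. The members, lists and tests were chosen with earlier results of these data known. Some genes within the rule are not reported here. Gene counts of 16224586 to 23611571 per library set the precision, and limits from a count of 0 cover counting error only.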

Additional observations from a re-analysis of the deposited data

Results flagged for a closer look

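In 112 sets of 4 libraries (genes with the largest changes and library measures, by group), a library was set against the other 3 by Dixon's test, which chance alone passes in about 1 of 20 sets. It passed in 8. Solvent library 1 stood apart with the most gene counts, 23611571, and the lowest share of reads outside genes, 10.8%. Tmem59l was high in solvent library 2 at 6.4855 CPM, and Col3a1 was low in the same library at 1843.6 CPM. Prdx1 was low in solvent library 4 at 1569.9 CPM. In FK228 library 1 Ankrd35 was high at 16.387 CPM and the myeloid nuclease Pld4 at 1.8145 CPM, and in FK228 library 7 Usp37 was high at 1864.2 CPM. In each of these genes the FK228 and the solvent libraries did not overlap with these libraries included, which was a condition of their choice.

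The log2 effect of FK228 differed between the genotypes in 4 genes (edgeR's quasi-likelihood test of the difference, wild type minus heterozygous), by -3.13 in Atp2a3, -2.65 in Sncb, -2.12 in Snap25 and 0.80 in Cplx2. Of these, Snap25, Sncb and Cplx2 are proteins of the presynaptic terminal.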

How the results depend on the processing

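The count of 8394 called genes was 6524 to 8838 over 11 alternatives and 7532 to 8132 when 1 library was left out, and 6247 to 8394 of the calls were called again in the same direction under the 11. Spike-in scaling gave 2008 rises, against 4061. The difference between genotypes was called in 16 genes by DESeq2, 2 by limma voom and 4069 with spike-in scaling, against 4. The median log2 fold change of the lowest decile of genes by level was 0.061 when ranked over all 16 libraries, against 0.49. Of 316 genes named by the rule 16 lost their call under spike-in scaling, the rises of Cbfa2t2 and Mlxip among them, and at most 4 under any other setting; the cause was not tested. No call of these genes reversed.

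The numbers 1, 2 and 4 occur in both groups. Deviations of same-numbered libraries correlated at 0.15, -0.10 and 0.031, and those of libraries with different numbers at -0.15 to 0.13. The labels do not tell whether a number stands for a shared preparation, and these few correlations cannot decide it. With the replicate block 6799 genes were called, 3275 higher and 3524 lower, and ribosomal protein genes gave 14 rises and 5 falls. The keratin median was 0.045 with that block. Medians near 0 changed sign elsewhere too: corepressor subunits were at 0.0044 with DESeq2, axon guidance genes at 0.024 with the stricter filter, sensory neuron factors at 0.028 with limma voom, and endoplasmic reticulum stress genes at 0.049 without FK228 library 2.

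The counts were unstranded, so that overlapping genes share reads. Without the filter on low counts 30665 genes were tested and 8178 called. Spike-in scaling rests on small shares of gene and spike-in counts, 0.156% to 0.237% in the wild-type libraries. The share was 0.165% to 0.232% in heterozygous solvent libraries and 0.312% to 0.393% in heterozygous FK228 libraries. Its bearing on the 4069 genes called for the difference under this scaling was not tested.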

Other observations

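Fshb, the largest fall among genes with at least 10 CPM in the higher group, was counted 16, 13, 10 and 24 times in the FK228 libraries and 403, 845, 538 and 441 times in the solvent libraries. Other genes known from the gonadotrope and the rest of the anterior pituitary, chosen after these values were seen, had few counts. The shared hormone subunit Cga had 1 count over the 4 FK228 libraries and 3 over the 4 solvent libraries, and Lhb, the beta subunit of luteinizing hormone, had 0 and 2. The receptor Gnrhr and the hormone Prl had 0 counts in all 8 libraries, and Gh had 0 with FK228 and 2 with solvent. Tshb had 21 with FK228 and 8 with solvent. Nr5a1, a nuclear receptor of the gonadotrope, had 10 with FK228 and 6 with solvent, and Pitx1 4 and 0. Pomc, the precursor of corticotropin, had 75 counts with FK228 and 102 with solvent, and Lhx3, a factor of hair cells as well as of the pituitary, had 105 with FK228 and 305 with solvent.

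The gene with the smallest p of the comparison was Tango2, a gene of unsettled function that is mutated in a human metabolic crisis syndrome. It had 234, 203, 237 and 249.8 CPM in the 4 FK228 libraries, against 66.8, 62.4, 60.2 and 62.3 CPM in the 4 solvent libraries, and rose 3.67-fold (edgeR adjusted p = 2.17e-11). Its log2 fold change was 1.88 in wild type and 1.89 in heterozygous cultures. It was named after its value was seen.

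Among imprinted genes, Rian and Meg3, non-coding RNAs of a maternally expressed cluster on chromosome 12, rose by 1.54 and 1.27 on the log2 scale. H19, a maternally expressed RNA on chromosome 7, had a log2 fold change of -1.53. Meg3 averaged 60.8 ± 15.7 CPM with FK228 and 25.1 ± 3.23 CPM with solvent (SD, n = 4 libraries each), and Rian 65 ± 15.2 CPM with FK228 and 22.4 ± 5.71 CPM with solvent.

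Some lists read differently in the heterozygous cultures. REST target genes gave 16 rises and 3 falls of 39 in wild type (median log2 fold change 0.47) and 26 and 3 in heterozygous cultures (median 1.04). Glycolysis genes gave 5 rises and 7 falls of 22 in wild type (median -0.24, or -0.076 without solvent library 4) and 11 and 0 in heterozygous cultures (median 0.30). Melanocyte and stria vascularis genes gave 0 rises and 7 falls of 15 in wild type (median -0.75, or 2 rises, 4 falls and a median of -0.45 without solvent library 1) and 5 and 3 in heterozygous cultures (median 0.24). The difference between the genotypes was not tested for a list, and no single member of the glycolysis or the melanocyte list passed the test of the difference.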
